A study of Mus musculus with 3 samples.

Results

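Small nucleolar RNAs and small Cajal body RNAs were examined across 3 mouse cell populations, with 1 array for each population. The set was chosen with earlier results of these data known. By name, it took every gene of the array platform's gene table whose symbol starts with Snora, Snord or Scarna and a digit. That gave 108 genes, of which 78 had a probe set that names no other gene, among 22180 genes measured in this way. The 78 genes comprised 26 box H/ACA RNAs (Snora), 47 box C/D RNAs (Snord) and 5 Cajal body RNAs (Scarna). The other 30 are named only by probe sets shared with another gene and stand apart in the closing paragraphs. The populations were progenitors of mast cells, mast cells at maturity and innate lymphoid cells of the type 2 lineage (ILC2), all from the peritoneal cavity of naive, untreated female BALB/c mice aged 10 to 11 weeks. Both mast cell populations were sorted as c-kit high and FcεRI positive, the progenitors with high integrin β7 on low side scatter and the mature cells with high side scatter and at most intermediate integrin β7. ILC2 were sorted as positive for CD127, CD25 and T1/ST2 and negative for FcεRI. Cells of 5 mice were pooled, RNA from 100 sorted cells per population was amplified, so that no value has an error, no difference could be tested and no p-value is given.

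Small nucleolar RNAs guide the chemical modification and the cutting of ribosomal RNA in the nucleolus. Box C/D RNAs, which work with the methyltransferase fibrillarin, direct 2′-O-methylation, and box H/ACA RNAs, which work with the pseudouridine synthase dyskerin, direct pseudouridylation. Small Cajal body RNAs carry the same boxes and act on the RNAs of the spliceosome. In mammals most of them are cut out of introns of longer host genes, many of which encode ribosomal proteins or translation factors or are long non-coding RNAs.

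The letters of a pair of members could be read, because they share bases with microRNA hairpins of the RefSeq table for GRCm38.p6. They are shown as examples of the letters of H/ACA RNAs, with the bases that the RefSeq gene table assigns to the small nucleolar RNA in capitals. The first covers all 56 bases that the gene table assigns to Snora19 and ends in the ACA box followed by 3 bases, as H/ACA RNAs do. That entry is the shortest of the 26 H/ACA RNAs, so it may hold only part of the RNA. The second covers 73 of the 118 bases of Snora34 and does not reach its ACA end.
Snora19 within Mir3084-2, chr19:60774329-60774397, minus strand: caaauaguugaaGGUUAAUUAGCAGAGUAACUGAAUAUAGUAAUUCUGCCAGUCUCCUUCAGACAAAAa
Snora34 within Mir1291, chr15:98519762-98519878, minus strand: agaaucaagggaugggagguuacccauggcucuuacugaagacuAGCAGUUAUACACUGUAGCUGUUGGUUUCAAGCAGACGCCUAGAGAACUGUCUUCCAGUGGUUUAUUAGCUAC
Neither differed much between the arrays. Snora19 was at a log2 level of 6.57 on each array, by both of its probe sets. Snora34 was at 2.98 in progenitors, at 2.98 in mature cells and at 2.93 in ILC2. A probe set cannot tell an intact small RNA from other transcripts of the same bases, such as unspliced host RNA or a microRNA precursor.

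The labels were set against marker genes first. All 7 listed mast cell markers were at least 4-fold higher in mature mast cells than in ILC2, and 3 of them (Cpa3, Cma1 and Mcpt4) were in progenitors. The other 4 (Tpsb2, Kit, Fcer1a and Ms4a2) did not reach 4-fold between progenitors and ILC2. Transcripts of the sort markers were at 6.88 against 6.63 for Kit and 5.37 against 5.05 for Fcer1a, so they hardly separate the progenitor array from ILC2. Of 7 ILC2 markers, Il7r and Klrg1 were at least 4-fold higher in ILC2 than in either mast cell population, and the other 5 (Il2ra, Gata3, Rora, Icos and Thy1) did not reach 2-fold. None of 5 macrophage, 3 measured B cell, 3 measured T cell and 3 eosinophil markers reached 2-fold in any comparison, and none of the 14 was above a log2 level of 8 on any array.

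The clearest pattern was a set of small RNAs that were high in ILC2 alone or with progenitors. A gene was counted as different when a pair of arrays gave log2 levels 2 or more apart (4-fold) and the higher level exceeded the median of its array, which was 6.32 in progenitors and 6.30 in both mature cells and ILC2. Of the 78 small RNAs, 7 were below ILC2 by 4-fold or more in progenitors (8.97%), against 0.888% of all 22180 genes, and 1 was higher, against 0.207% of all genes. In mature mast cells 7 were at least 4-fold lower than in ILC2 (8.97%), against 0.401% of all genes, and 2 were higher (2.56%), against 0.573%. Both comparisons use the same ILC2 array, so they are not independent. In a pooled sample, fewer cells that carry an RNA and less of it per cell cannot be told apart. With 1 array per population, a property of the cells and one of this ILC2 library cannot be told apart either. Between the mast cell populations 1 small RNA was higher in progenitors, against 0.113% of all genes, and 1 was lower (1.28%), against 0.834%. For both, the lower level was below the median of its array. With that median in its place they were 3.24-fold and 3.64-fold apart, short of 4-fold. The genes counted in any comparison numbered 9, and they came from all 3 classes.

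**Figure D1:**
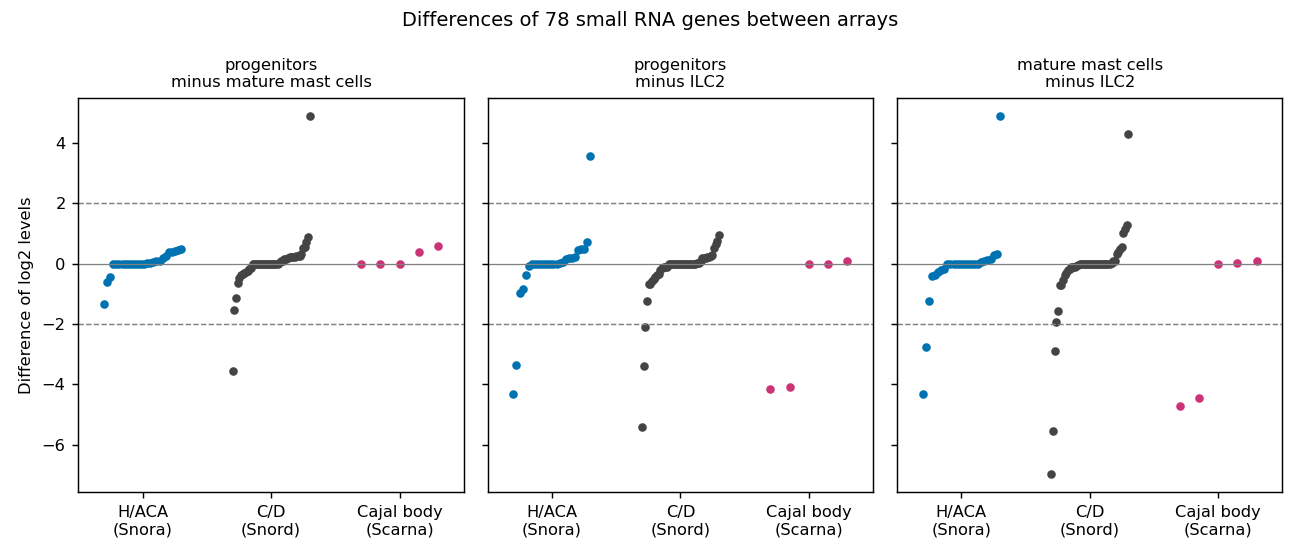
Difference of log2 levels (vertical axis) between each pair of arrays for the 78 small RNA genes, 1 point per gene, arranged by class and ordered by size within a class; dashed lines mark 4-fold. Most points lie at or near 0, and in both comparisons with ILC2 7 points lie below the lower line.

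Among box H/ACA RNAs the ILC2-high members were Snora73a and Snora73b, a pair of near-relatives known to act in the cutting of the precursor of the small-subunit ribosomal RNA. Snora73a was at 5.31 in progenitors, at 5.91 in mature cells and at 8.67 in ILC2. Snora73b was at 6.01, 6.01 and 10.31. Both mast cell levels lay below the median of their arrays, and the ILC2 levels were far above it. Snora73a was therefore at least 5.12-fold higher in ILC2 than in progenitors and at least 5.18-fold higher than in mature mast cells, taking the array median as the lower level. For Snora73b these bounds were 16-fold and 16.2-fold. Both have the same length of 205 bases, and how far their probe sets can distinguish them is not given in the sources used here.

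The widest H/ACA difference ran the other way. Snora75, an H/ACA RNA encoded in an intron of the nucleolin gene, was at 9.67 in progenitors, at 11.01 in mature cells and at 6.11 in ILC2. It was high in both mast cell populations and below the array median in ILC2. It was at least 10.3-fold higher in progenitors and at least 26.0-fold higher in mature mast cells than in ILC2, and 2.52-fold lower in progenitors than in mature cells. Snora75 was the only one of the 78 small RNAs at least 4-fold higher in progenitors than in ILC2.

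The other 23 H/ACA RNAs did not reach 4-fold in any comparison. Snora62, whose host gene Rpsa encodes a protein of the small ribosomal subunit, was at 6.61 in progenitors, at 6.34 in mature cells and at 7.58 in ILC2, the one further H/ACA RNA past 2-fold. Snora41, from an intron of the elongation factor gene Eef1b2, was at 7.73, 8.16 and 8.58. Snora21, from the ribosomal protein gene Rpl23, was at 8.66, 8.49 and 8.17. Snora44, which lies in the long non-coding RNA gene Snhg12, was at 7.91, 7.54 and 7.76, and Snora35, which lies in the serotonin receptor gene Htr2c, at 6.90, 6.42 and 6.42. Snora7a, from the ribosomal protein gene Rpl32, was at 7.11, 7.06 and 6.91. These 5 differed by less than 2-fold across the arrays. In all, 8 of the 26 H/ACA RNAs had exactly the same value on the 3 arrays.

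Box C/D RNAs included the largest differences of the whole set. Snord89 was at 6.35 in progenitors, at 6.20 in mature cells and at 11.76 in ILC2. It was 42.3-fold higher in ILC2 than in progenitors and at least 43.9-fold higher than in mature mast cells. Snord71, a box C/D RNA assigned to methylation of ribosomal RNA, was at 5.68, 6.16 and 9.06. It was at least 6.68-fold higher in ILC2 than in progenitors and at least 6.76-fold higher than in mature mast cells. Both were near or below the median on the mast cell arrays.

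Snord72, encoded in the ribosomal protein gene Rpl37, differed between all 3 populations. It was at 7.99 in progenitors, at 3.11 in mature cells and at 10.09 in ILC2. The ILC2 level was 4.27-fold above that of progenitors, which quantile normalization took below 4-fold (progenitors minus ILC2, -1.82 on the log2 scale), and at least 13.9-fold above the median of the mature mast cell array. The measured difference between progenitors and mature mast cells was 29.6-fold, but the bound over the array median was 3.24-fold, since the mature level lies far below that median. By measured levels, Snord72 was the only one of the 78 small RNAs at least 4-fold higher in progenitors than in mature mast cells.

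Snord104 was the counterpart in mature mast cells, at 4.64 in progenitors, at 8.18 in mature cells and at 3.89 in ILC2. It was above the array median in mature mast cells alone. The measured differences were 11.7-fold against progenitors and 19.5-fold against ILC2, and the bounds over the array medians were 3.64-fold and 3.67-fold.

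A further 5 box C/D RNAs passed 2-fold without reaching 4-fold, and they did not share a direction. Snord83b, a C/D RNA of an intron of the ribosomal protein gene Rpl3, was at 7.63 in progenitors, at 6.93 in mature cells and at 8.86 in ILC2. Snord43, from the same gene, was at 6.52, 6.86 and 5.58, lowest where Snord83b was highest. Snord111, within the splicing factor gene Sf3b3, was at 5.89, 5.0 and 6.56. Snord42b, within the ribosomal protein gene Rpl23a, was at 5.56, 7.10 and 6.08, and Snord49b at 6.40, 7.55 and 6.40, both highest in mature mast cells. Counting all classes at 2-fold, 4 small RNAs were lower in progenitors than in mature cells (1.93% of all genes were) and 1 was higher (0.509%). Against ILC2, 8 were lower in progenitors (1.88% of all genes) and 1 higher (0.766%). In mature mast cells 10 were lower than in ILC2 (1.26% of all genes) and 5 higher (1.34%).

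Several box C/D RNAs were bright and nearly level. Snord8 lies in the long non-coding RNA gene Gm26590 and, by position, also in the chromatin remodeller gene Chd8. It was at 9.98 in progenitors, at 9.78 in mature cells and at 10.32 in ILC2. Snord23, within Nop53, a ribosome assembly gene, was at 8.91, 8.81 and 8.27, and Snord53, within the ribosome assembly gene Wdr43, at 8.26, 7.72 and 8.08. Snord118, known for its part in cutting the precursor of the large-subunit ribosomal RNAs, was at 6.81 on each array. Snord13, known for its part in making the small-subunit ribosomal RNA, was below the median throughout at 4.78, 4.46 and 5.17. Snord118 and Snord13 were picked for their roles with their values known. Exactly tied on the 3 arrays were 13 of the 47.

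Of the 5 Cajal body RNAs, 2 were high in ILC2. Scarna17 was at 7.42 in progenitors, at 6.83 in mature cells and at 11.56 in ILC2, which is 17.6-fold and 26.5-fold higher in ILC2. A dimmer probe set for it gave 6.47, 4.46 and 8.81, so that ILC2 was highest by both. Scarna8, a guide for a spliceosomal RNA, was at 4.81, 4.45 and 8.90, at least 6.01-fold higher in ILC2 than in progenitors and at least 6.09-fold higher than in mature mast cells. The other members were nearly level, with Scarna2 at 7.16 on each array, Scarna10 at 4.74, 4.77 and 4.74 and Scarna6 at 5.11, 5.11 and 5.03.

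**Figure D2:**
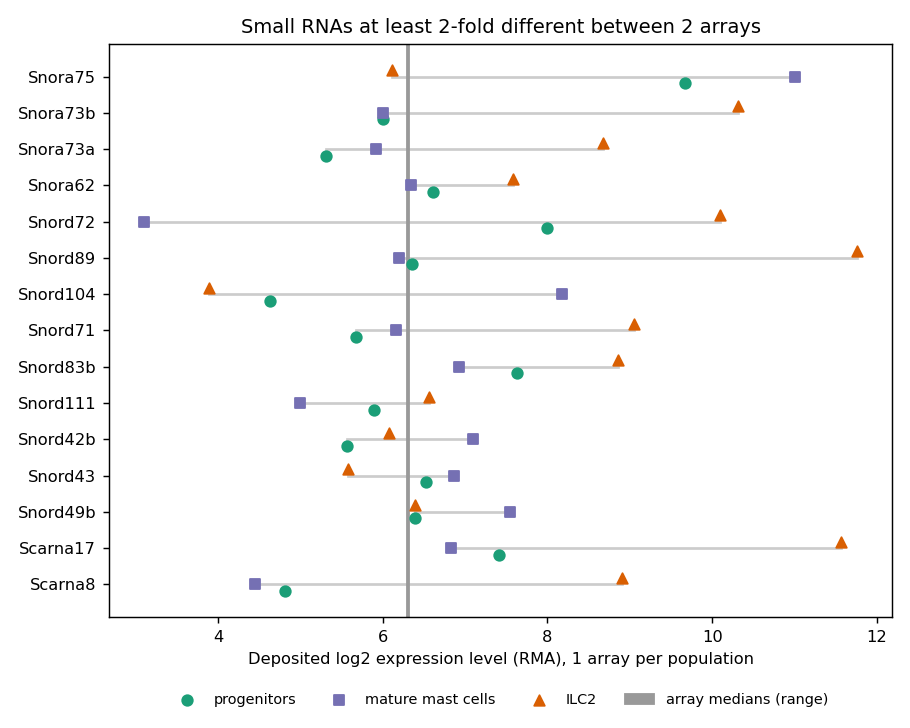
Deposited log2 levels (horizontal axis) of the 15 small RNA genes that differed at least 2-fold between a pair of arrays; circles are progenitors, squares mature mast cells and triangles ILC2, 1 array each, and the grey band spans the 3 array medians. ILC2 lies far to the right of both mast cell populations for Snord89, Scarna17, Snora73b, Scarna8, Snord71 and Snora73a, and far to the left for Snora75.

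Most of the small RNAs showed no such differences. The range over the 3 arrays was under 1 log2 unit for 63 of 78 (80.8%) and at least 2 for 9 (11.5%), against 95.5% and 1.77% of all genes. Exactly tied on the 3 arrays were 22 (28.2%), against 47.9% of all genes. The median difference was 0 in each comparison, for the small RNAs and for all genes alike. The mean difference of the 78 was -0.30 for progenitors minus ILC2 and -0.33 for mature mast cells minus ILC2, against -0.01 and -0.01 over all genes, and 0.03 between the mast cell populations. On all 3 arrays 41 members lay below the array median, where background signal limits what can be seen. Above the median were 30 in progenitors, at 30 in mature cells and at 33 in ILC2, and above a log2 level of 8 were 5, 6 and 13. For all genes the shares above 8 were 2.79%, 3.55% and 3.66%, and for the small RNAs 6.41%, 7.69% and 16.7%.

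Other short transcripts on the same arrays gave another reference. Of 472 microRNA genes, 4 (0.847%) were below ILC2 by 4-fold or more in progenitors and 10 (2.12%) above it, and 3 (0.636%) were lower in mature mast cells than in ILC2 and 8 (1.69%) higher. Of 1394 olfactory and vomeronasal receptor genes, whose known site of expression is sensory neurons, 5 (0.359%) and 3 (0.215%) were lower in progenitors and in mature mast cells than in ILC2, and 7 (0.502%) and 20 (1.43%) were higher. Both lists thus had smaller shares above the mast cell populations in ILC2 than the 78 small RNAs, a difference that was not tested. Of 11 other small non-coding RNAs 2 passed 4-fold. In this list 1 (9.09%) was lower in progenitors than in ILC2, a share like that of the 78 small RNAs. None was lower in mature mast cells than in ILC2 and 1 (9.09%) was higher. Between the mast cell populations 2 (18.2%) were lower in progenitors. The shares of all genes were, in that order, 0.888%, 0.401%, 0.573% and 0.834%. Rny3, a Y RNA, was at 5.06 in progenitors, at 8.38 in mature cells and at 9.35 in ILC2, and Rpph1, the RNA subunit of ribonuclease P, at 6.75, 9.29 and 6.48. The minor spliceosomal RNA Rnu12 was at 8.35, 8.94 and 9.53.

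**Figure D3:**
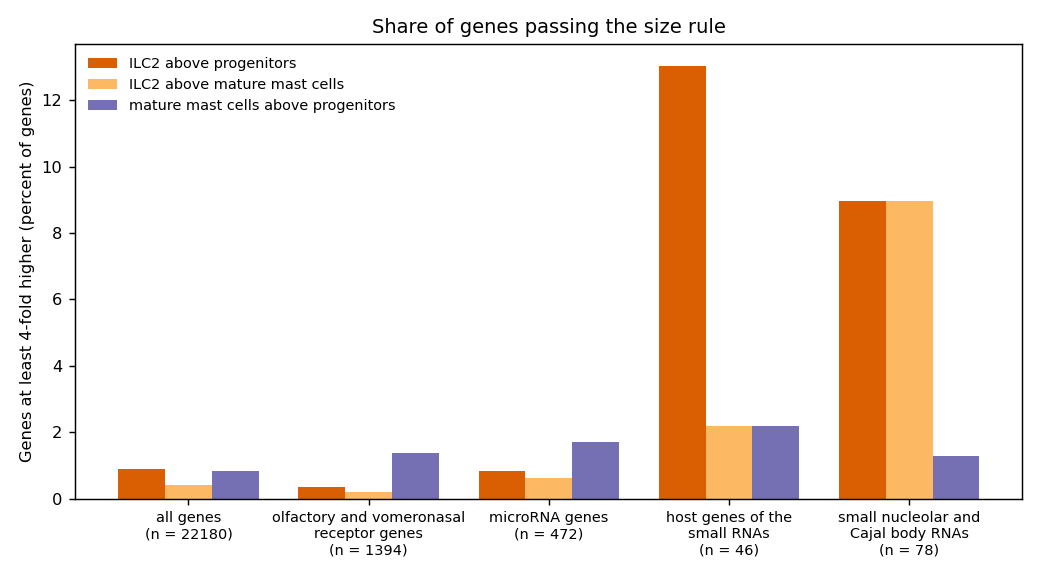
Percent of genes (vertical axis) at least 4-fold higher in the first-named population, for all genes and 4 gene lists; each bar is a share of genes from 1 array per population, so it has no error bar. The small RNAs stand at 8.97% in both comparisons with ILC2, and their host genes at 13.0% and 2.17%.

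The small RNAs were then set against the genes they lie in, since most are processed from introns. By position in the RefSeq gene table, which gives no strand, 74 of the 78 lay within a gene, 18 in ribosomal protein genes, 35 in other protein-coding genes and 21 in long non-coding RNA genes. Where several genes contain one, the shortest was taken. For 60 of them the host, 46 genes in all, was measured by a probe set of its own. None of the small RNAs counted as different had a measured host that differed 2-fold in the same direction, with 1 such RNA between the mast cell populations, 5 between progenitors and ILC2 and 5 between mature mast cells and ILC2.

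Snhg3, the long non-coding host of Snora73a and Snora73b, was at 8.08 in progenitors, at 7.90 in mature cells and at 8.46 in ILC2. Ncl, host of Snora75 and of Snord82, was at 9.71 on each array. Snord82 itself was at 3.08, 3.47 and 3.08. Rpl37, host of Snord72, was at 6.01 on each array, and Haus6, a spindle gene that holds Scarna8, at 5.29 on each array. Ap1g1, an adaptor protein gene that holds Snord71 along with the shorter non-coding gene Gm17344, was at 6.93, 6.89 and 6.89. Rpl37 and Haus6 were below the median on every array, where a difference might not be seen, so that comparison rests on Snhg3 and Ncl. Ncl was exactly tied on the 3 arrays, as were 47.9% of all genes. Ap1g1 is not among the 46 hosts, since the shorter Gm17344 was taken as the host and had no probe set of its own. Snhg3, Ncl and Ap1g1 differed by less than 2-fold where the small RNAs placed inside them differed at least 4-fold. Snord89 lies in no gene of the table, and Gm41774 and Gm36220, which hold Scarna17 and Snord104, had no probe set of their own.

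Some hosts differed themselves. Of the 46 measured hosts, 6 were below ILC2 by 4-fold or more in progenitors (13.0%, against 0.888% of all genes), 1 was lower in mature mast cells than in ILC2 (2.17%, against 0.401%) and 1 was lower in progenitors than in mature cells (2.17%, against 0.834%). None of the 9 small RNAs within the 6 hosts of the first comparison passed 4-fold there, but 7 of them were below the median on every array and could hardly have been counted. The long non-coding gene 2410006H16Rik was at 5.94 in progenitors, at 6.71 in mature cells and at 11.38 in ILC2. Of its small RNAs, Snord49a was at 5.31 and Snord65 at 5.14 on each array, below the median, and Snord49b was highest in mature mast cells. Cct6a, a chaperonin subunit gene that holds Snora15, was at 6.97, 11.16 and 10.05 by its brighter probe set, and its other probe set was at 8.11 throughout. Snora15 was at 4.98, 4.89 and 4.78. Eef2, the elongation factor gene that holds Snord37, was at 7.54, 9.10 and 10.18, and Snord37 at 3.65 on each array. The remaining hosts of this kind were the ribosomal protein genes Rpl32, Rps12 and Rps3a1.

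**Figure D4:**
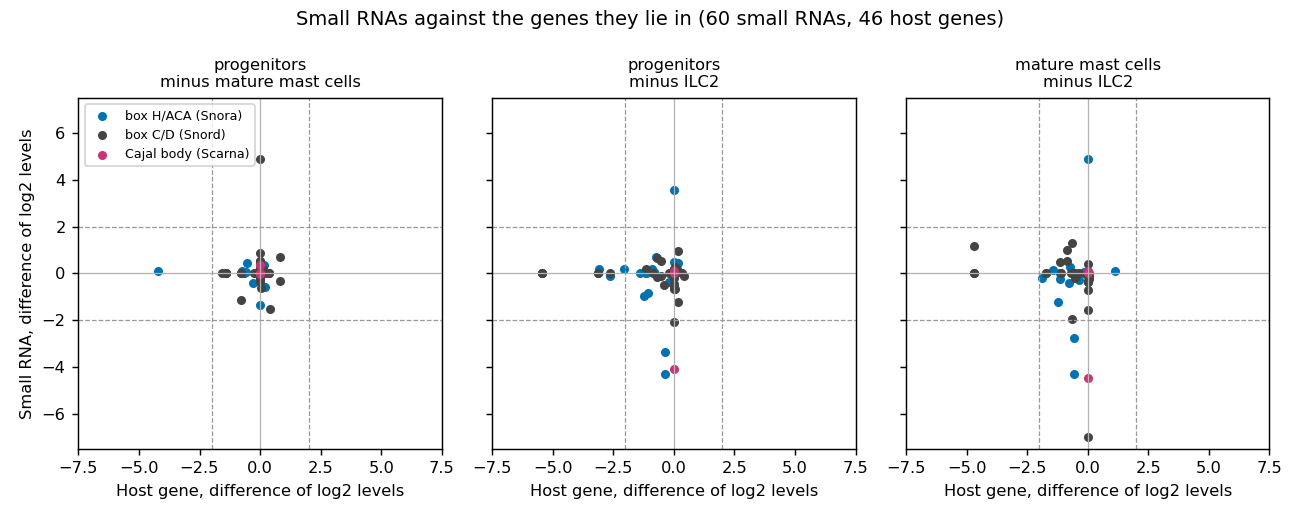
Difference of log2 levels of the host gene (horizontal axis) against that of the small RNA inside it (vertical axis) for 60 small RNAs and 46 hosts, with 1 panel per pair of arrays; some points share a host and dashed lines mark 4-fold. Points lie along the axes, and no point lies beyond 4-fold for both the host and the small RNA.

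Small RNAs that share a host could also be set side by side. Of 11 hosts with more than 1 member, which hold 25 members, Snhg3 had both of its members counted as different and Ncl 1 of 2, and the other 9 had none. Snhg12 holds 4 members, of which Snora16a was at 4.63 and Snora61 at 6.39 on each array, and Snord99 was at 3.11, 3.39 and 2.91.

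The start sites of 6 host genes of counted members are shown (not that of Gm41774, the host of Scarna17) because many host genes of small nucleolar RNAs are known to begin transcripts with a run of pyrimidines, which links their translation to growth signals. Each line gives 40 bases before the RefSeq start and 10 bases from it on the host's strand (GRCm38.p6), with the run of C and T that holds the first transcribed base in capitals.
Snhg3, chr4:132353677-132353726, minus strand: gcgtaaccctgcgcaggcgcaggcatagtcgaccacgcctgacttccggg
Ncl, chr1:86359446-86359495, minus strand: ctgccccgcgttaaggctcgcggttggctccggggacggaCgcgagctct
Rpl37, chr15:5116573-5116622, plus strand: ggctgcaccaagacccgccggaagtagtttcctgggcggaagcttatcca
Haus6, chr4:86612046-86612095, minus strand: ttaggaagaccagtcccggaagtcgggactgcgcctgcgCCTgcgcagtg
Gm17344, chr8:109868521-109868570, minus strand: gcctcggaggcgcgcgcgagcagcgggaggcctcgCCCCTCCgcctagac
Gm36220, chr11:106500875-106500924, plus strand: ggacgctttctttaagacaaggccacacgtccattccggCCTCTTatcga
A run of at least 5 pyrimidines over the annotated first base was found at Gm17344 (7 bases) and Gm36220 (6 bases) and not at the other 4. Of 50 start sites of 46 host genes in the RefSeq promoter table, 10 had such a run (20.0%), against 10.1% of all 32851 start sites. These 46 are not the 46 measured hosts, since they include Gm17344 and Gm36220, which had no probe set of their own. By kind of host, 7 of 13 start sites of long non-coding hosts had one (53.8%), 1 of 9 of ribosomal protein hosts (11.1%) and 2 of 28 of other protein-coding hosts (7.14%). The search was on the transcribed strand alone, and a start annotated a few bases off hides a run, so its absence says nothing about the gene.

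The measured genes for proteins of these particles differed little. Of 3 measured box C/D proteins and 4 box H/ACA proteins none reached 2-fold. Fbl, which encodes fibrillarin, and Nhp2l1 were also listed but had no probe set of their own under those symbols. The scaffold gene Nop58 was at 5.74 in progenitors, at 5.74 in mature cells and at 5.69 in ILC2, Nop56 at 6.72 on each array, and Rrp9, a protein bound to a C/D RNA of ribosomal RNA cutting, at 6.71, 6.68 and 6.71. Dkc1, which encodes dyskerin, was at 5.20, 5.14 and 5.39 and Nhp2 at 5.63 on each array. Nop10, another H/ACA subunit gene, was highest in mature mast cells at 6.91, 7.89 and 6.91. Of 16 assembly and Cajal body factors none reached 2-fold, and 10 were exactly tied. Nolc1, a nucleolar chaperone of these particles, was at 7.54, 8.40 and 7.54, Shq1, an assembly factor of H/ACA particles, at 5.05, 5.29 and 5.41, and Coil, the Cajal body protein coilin, at 6.81, 6.49 and 6.49.

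Of 14 measured long non-coding host genes on the list none reached 4-fold. Zfas1 was lower in ILC2 by its brighter probe set, at 8.06 in progenitors, at 7.63 in mature cells and at 6.42 in ILC2. Snhg12 was higher there, at 6.55, 6.55 and 7.70. No measured gene of the particle lists therefore showed the differences seen for Snora73b, Snord89, Scarna17 or Scarna8. Most genes of those lists were dim, however, and small differences would not be seen.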

How the data were processed

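The authors deposited log2 levels for 41345 probe sets on 3 arrays. The submitters' processing notes name RMA, without a version, as the authors' method. That the scale is log2 follows from the range of the values, and the build is not given in the sources used here. RMA in general sets arrays to a like distribution and summarises probes, so exact ties and dim values near background shrink differences. Amplification from 100 cells can change proportions between transcripts, and its part in the results was not tested.

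Of the probe sets, 23521 named 1 gene and 1814 several. Where a gene had several probe sets, the brightest by mean was used. Differences of log2 levels were taken in Python 3.11.15 (pandas 2.3.3), with the 4-fold rule, the floor at each array's median and the lower bounds described with the results. The calling step was run on simulated data, with large shifts planted only in genes well above the array medians. That run checks the code and says nothing about dim genes or about the noise of amplification. Host genes came from RefSeq positions (GRCm38.p6), used for neighbours only. All 108 symbols matched that table.

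The number of arrays limits the precision. The members, gene lists and rules were chosen with earlier results of these data known. Genes named are those past 4-fold, all Cajal body RNAs, up to 6 per class by range, up to 4 bright and level ones per class, up to 3 further genes of each particle list, and hosts. Other members were added with values known. The strand in the host rule could not be used, since the table gives none. Alternatives were no floor, a higher floor, a common median, quantile normalization, the mean of probe sets, genes with 1 probe set, a 2-fold rule and, added after seeing the data, probe sets of several genes.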

Additional observations from a re-analysis of the deposited data

How the results depend on the processing

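The 4-fold counts of small RNAs stayed within 1.5 times of those reported without a floor, with one at percentile 75, with arrays shifted to one median, and with quantile normalization, the mean of probe sets and genes with 1 probe set. Quantile normalization kept 18 of 19 single differences past the rule and reversed none. The arrays were already alike in distribution (75th percentiles 6.86, 6.85 and 6.86), so it could hardly undo wide differences. The array medians (6.32, 6.30 and 6.30) were too close for a shift to one median to undo any of the 19, so that alternative could not test them. Most of the other alternatives leave single differences as they are by construction. The exception was Snord72 under quantile normalization, where progenitors minus ILC2 was -1.82. A 2-fold rule raised the count lower in progenitors than in mature cells to 4 and the count higher in mature mast cells than in ILC2 to 5. Adding probe sets of several genes, chosen after seeing the data, raised these counts to 3 and 6 of 108 members. It raised the count higher in progenitors than in ILC2 to 4. The shares of all genes under that alternative were 0.842%, 0.59% and 0.221%. With these probe sets added, 8 of the 108 were lower in progenitors than in ILC2 (0.891% of all genes). In mature mast cells 8 were lower than in ILC2 (0.405%). Lower and higher counts against ILC2 were thus 8 and 4 in progenitors and 8 and 6 in mature mast cells. For the 78 they were 7 and 1, and 7 and 2, so the lean towards ILC2 was weaker with these probe sets. Snord116l1 and Snord116l2 have the same values from shared probe sets, yet each was counted in the 6 and in the 4. Leaving out an array was not possible with 1 array per population. Depth is not defined for arrays, and any differences of the 41 members below the array median could hardly be seen.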

Other observations

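Probe sets shared between a small RNA and another gene, which the report left out, held some of the widest differences. They numbered 46, with 30 distinct sets of names and values, and what they measure cannot be assigned to either gene. These were picked after their values were seen. The probe set of Snora81 and its host Eif4a2, a translation initiation factor gene, was at 3.04 in progenitors, at 2.85 in mature cells and at 10.91 in ILC2. The one of Snord2 and Eif4a2 was at 3.53, 9.43 and 4.27, so probe sets that share the name Eif4a2 were highest in different populations. A probe set of Snora17 and Snhg7 was at 5.18, 5.31 and 9.54, and another of the same names at 7.92, 7.92 and 8.46. The one of Snord15b and Rps3 was highest in mature mast cells at 5.78, 8.39 and 5.42.

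The imprinted box C/D cluster Snord116, known mainly from brain, was represented by 16 probe sets with the same values that name Snord116l1, Snord116l2 and Gm26504. They were at 9.35 in progenitors, at 10.81 in mature cells and at 6.57 in ILC2. The order is that of Snora75, with both mast cell populations above ILC2. The probe set of Snora3, Gm13981 and Rpl27a was highest in progenitors at 10.61, 8.91 and 8.59.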
